A study of Mus musculus with 12 samples.

Results

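Over all genes, 3 MC38 tumors of mice given SFIH and anti-PD-1 antibody together (Comb) were compared with 3 tumors of mice given the antibody alone (PD). SFIH is a hexane fraction of the root of the herb Inula helenium, rich in sesquiterpene lactones. These are 6 of the 12 tumors of the series, chosen by their labels, and the question is what SFIH adds to PD-1 blockade in the transcriptome of the tumor. MC38 is a mouse colon carcinoma line, and it was injected subcutaneously into the right flank of female wild-type C57BL/6 mice, 6 weeks of age. PD mice received 200 μg of anti-PD-1 antibody into the peritoneum 2 times a week. Comb mice received the same antibody and, by the same route, 50 mg/kg of SFIH daily. The other groups were Con, which had the vehicle and an isotype antibody (IgG2a), and SFIH, which had the fraction and the isotype antibody without anti-PD-1. All tumors were taken on day 19. RNA came from pieces of whole tumor, so that a lower level of a transcript can mean fewer cells that hold it or less of it per cell, and these cannot be told apart here.

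PD-1 is a brake on T cells, and antibodies that block it let T cells that already recognize a tumor respond to it. Interferon gamma from T and NK cells then induces chemokines such as Cxcl9 and the genes of antigen presentation, while macrophages range between an inflammatory (M1-like) and a tissue-repair (M2-like) state. Tumor cells short of oxygen stabilize the transcription factor HIF-1, which raises glycolysis, limits the use of pyruvate in mitochondria and induces Vegfa, the ligand that draws in blood vessels.

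The 3 Comb tumors differed widely from each other. Of the 13464 genes tested, 297 were at least 2-fold above and 285 at least 2-fold below the PD mean in Comb replicate 1, 819 and 262 in replicate 2, and 3112 and 3389 in replicate 3. Comb replicate 3 lay at least 2-fold above all 5 other tumors in 1859 genes and below them in 2149, against 3 to 45 genes above and 9 to 36 below for each of the other tumors. Total counts did not set it apart (10981028, against 7870741 to 10095648 in the others), but its TMM factor was the lowest (0.76, against 0.88 to 1.05) and fewer genes had a count in it (14503, against 15564 to 15675). The ribosomal RNA precursor Rn45s took 5.56% of its counts, against 7.26% to 17.1% in the other tumors.

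With this spread, no gene passed an adjusted p of 0.05 (edgeR quasi-likelihood test, smallest adjusted p = 0.243, 0% called). This count was also 0 without Comb replicate 3, and it was 2100 without Comb replicate 1. Without adjustment, 1736 genes were higher at p under 0.05 (12.9% of those tested) and 688 lower (5.11%), 18.0% in all, and without Comb replicate 3 these shares were 4.11% and 4.90%. DESeq2 called 399 of 14185 genes (2.81%), 329 higher (2.32%) and 70 lower (0.493%), and 25 without Comb replicate 3. About as many genes had a log2 fold change above 0 (49.8%, and 52.1% without Comb replicate 3) as below. Because of this, the changes that hold in all 3 tumors were counted from the values themselves: all 3 Comb tumors lay above all 3 PD tumors in 830 genes (6.16% of those tested) and below them in 1091 (8.10%), 14.3% in all. Full separation of 3 tumors from 3 has a two-sided p of 0.1 in an exact permutation test. Part of these genes can therefore separate without a treatment effect. With library size alone as scaling, which moved the median of all genes from -0.0029 to -0.16 on the log2 scale, the counts above and below PD were 572 and 1134, of which 486 and 830 were the same genes. Of the genes tested that DESeq2 also called, 111 higher and 66 lower ones were separated in this way, whereas 193 of its higher calls and 2 of its lower calls were not. A further 1865 genes lay above PD in Comb replicate 3 alone and 2398 below, 2165 lay above and 2014 below in replicates 2 and 3 without replicate 1, and 441 lay above and 333 below in replicates 1 and 2 without replicate 3.

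**Figure D1:**
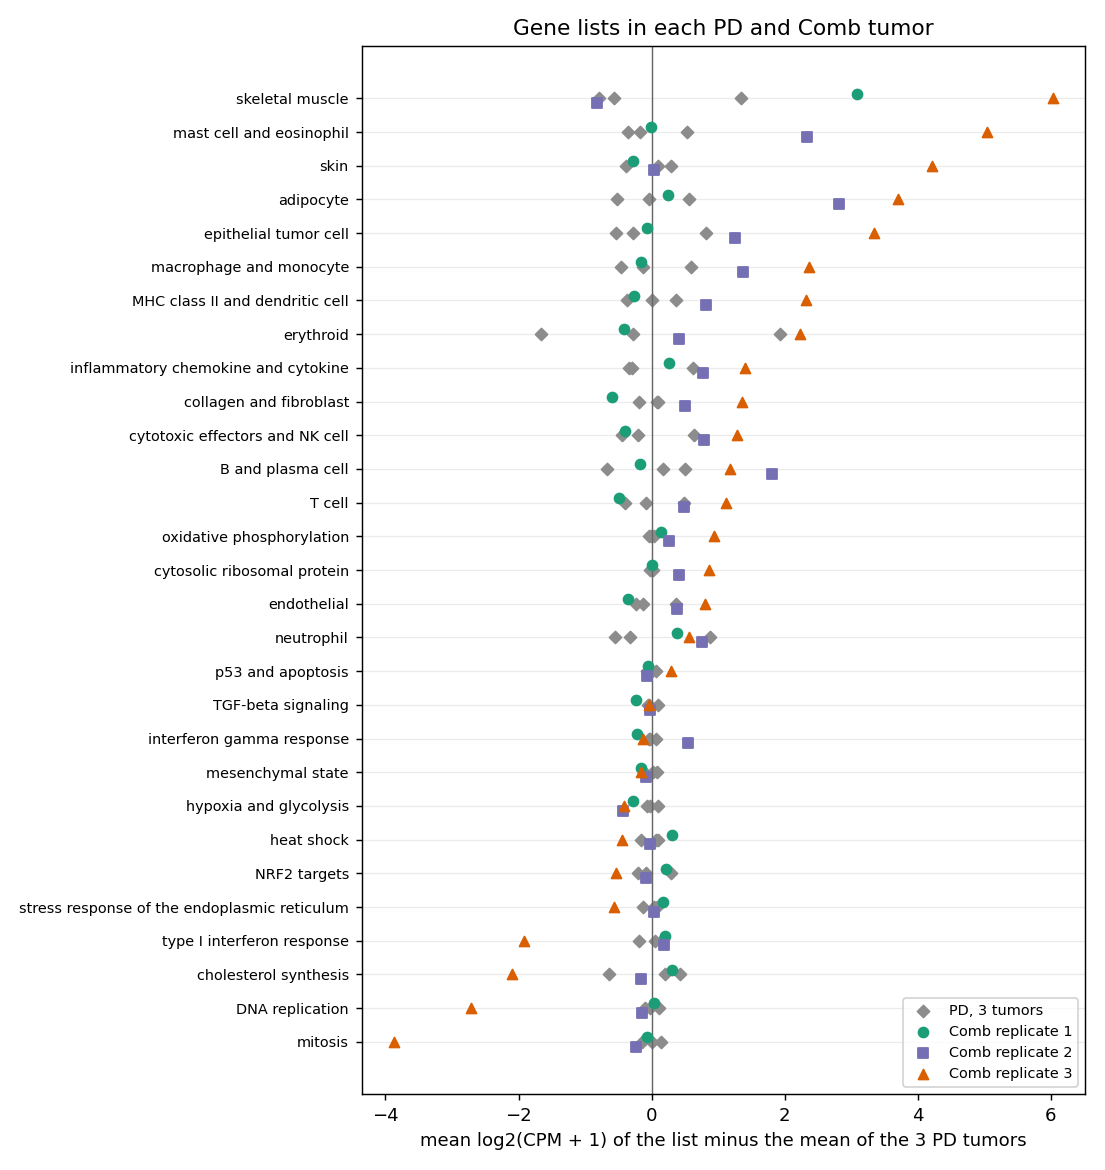
Mean level of 29 gene lists in each tumor, as the mean log2(CPM + 1) of the list's genes minus the mean of the 3 PD tumors. Grey diamonds are PD tumors and colored symbols are the 3 Comb tumors. Hypoxia and glycolysis genes sit below PD in all 3 Comb tumors, whereas the mitosis and skin lists leave the PD range widely in Comb replicate 3 alone.

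The changes that hold in all 3 Comb tumors were small for most genes, and a small set in each direction stood clear of PD. Among the higher genes with the widest gap to PD were Ccl11 (eotaxin, which attracts eosinophils), Xcl1 (a chemokine of NK and CD8+ T cells that attracts cross-presenting dendritic cells), Mrps28 (a protein of the mitochondrial ribosome) and Eif4e3 (a cap-binding protein). Among the lower genes were Stc1 (stanniocalcin, a secreted glycoprotein induced by hypoxia), Tet3 (a 5-methylcytosine dioxygenase), Xrn1 (the cytoplasmic 5′ to 3′ exonuclease of mRNA decay) and Col5a3 (a collagen V chain). The gap, which is the distance between the nearest Comb and PD tumors on log2(CPM + 1), was at least 1.5-fold in 48 genes (0.357%), 23 above PD (0.171%) and 25 below (0.186%).

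Ccl11 had 2.14, 11.6 and 3.70 CPM in PD replicates 1 to 3 and 19.1, 38.2 and 341 CPM in Comb replicates 1 to 3. The log2 fold change was 4.53 (SE 1.08, edgeR unadjusted p = 0.00143 and adjusted p = 0.243, DESeq2 adjusted p = 0.00177), and 2.33 without Comb replicate 3. Every Comb tumor was above every PD tumor, with Comb replicate 3 far above the other two. Xcl1 had 6.30, 3.41 and 3.70 CPM in PD and 11.7, 11.9 and 46.3 CPM in Comb (log2 fold change 2.37, SE 0.73, DESeq2 adjusted p = 0.0386, and 1.39 without Comb replicate 3). Eif4e3 was at 24.4, 26.6 and 22.5 CPM in PD and at 47.5, 50.1 and 112 CPM in Comb (1.51, SE 0.37, DESeq2 adjusted p = 0.0172, and 1.0 without Comb replicate 3). In both genes Comb replicates 1 and 2 were nearly equal and already clear of PD. Mrps28 had 14.8, 7.23 and 6.70 CPM in PD and 30.8, 28.7 and 41.0 CPM in Comb, and its log2 fold change was nearly the same with Comb replicate 3 (1.80) and without it (1.63). Its DESeq2 adjusted p was 0.0517.

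Gtpbp2, a GTPase that acts in the rescue of stalled ribosomes, was at 8.22, 1.23 and 2.50 CPM in PD and at 15.3, 14.8 and 17.2 CPM in Comb, with all Comb tumors close together (DESeq2 adjusted p = 0.0890). Tmem176b, a membrane protein of dendritic cells and macrophages, was at 65.2, 209 and 107 CPM in PD and at 315, 324 and 1546 CPM in Comb (log2 fold change 2.52, SE 0.66, DESeq2 adjusted p = 0.00996, and 1.33 without Comb replicate 3). Phf11a had 15.4, 17.2 and 16.7 CPM in PD and 26.2, 32.1 and 33.4 CPM in Comb, a difference of 0.90 (SE 0.23) that remained at 0.83 without Comb replicate 3. Myom1 (M-band of muscle) and Tuba8 (an alpha tubulin) were at 0.30 to 1.82 and 0.409 to 0.60 CPM in PD, and lay between 1.75 and 4.37 CPM in Comb replicates 1 and 2 and at 55.8 and 38.5 CPM in replicate 3. Skeletal muscle transcripts moved with them in replicates 1 and 3 but not in replicate 2 (sums further on), and their part was not tested. Trim2 (a ubiquitin ligase) and Mgst3 (a microsomal glutathione S-transferase) were also separated, with gaps of 1.57-fold and 1.53-fold and DESeq2 adjusted p-values of 0.0521 and 0.220.

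Among the lower genes, Stc1 was at 17.6, 16.6 and 16 CPM in PD and at 7.97, 7.94 and 3.49 CPM in Comb (log2 fold change -1.37, SE 0.32, DESeq2 adjusted p = 0.00913). Xrn1 was at 62.5, 62.9 and 59.7 CPM in PD and at 37.1, 34.6 and 19.4 CPM in Comb (-1.02, SE 0.23, DESeq2 adjusted p = 0.00913). The PD tumors agree closely in both, and the nearest Comb tumor lay 1.90-fold and 1.59-fold below them. Tet3 had 45.0, 39.7 and 38.4 CPM in PD and 22.5, 16.1 and 5.53 CPM in Comb, and Col5a3 had 240, 184 and 208 CPM in PD and 118, 104 and 41.3 CPM in Comb. Trib1, a pseudokinase that directs proteins to degradation, was at 71.8, 78.1 and 91.4 CPM in PD and at 46.8, 43.7 and 41.3 CPM in Comb. In Trib1 (log2 fold change -0.87, SE 0.18, DESeq2 adjusted p = 0.00376), Afap1, an actin filament adaptor (-0.88, SE 0.18, DESeq2 adjusted p = 0.00443), and Bnip1, a SNARE of the endoplasmic reticulum (-0.83, SE 0.19, DESeq2 adjusted p = 0.00913), all 3 Comb tumors were close together, and the values without Comb replicate 3 were -0.83, -0.83 and -0.77. Frmd6, a regulator of the Hippo pathway, behaved likewise (-0.91 and -0.79), whereas Mier2, Mipol1 and the linker histone Hist1h1b were lowest in Comb replicate 3, with 3.37, 0 and 0 CPM. The DESeq2 adjusted p-values of Mier2, Mipol1 and Hist1h1b were 0.0822, 0.138 and 0.236. Uxs1, which makes the UDP-xylose that starts proteoglycan chains, was at 12.9, 11.3 and 8.5 CPM in PD and at 4.86, 2.76 and 0.361 CPM in Comb. All 24 genes that the rule took, 12 in each direction, were also separated with library size alone and with DESeq2 size factors. For library size alone this was fixed in advance, because the TMM factors (0.76 to 1.05) span less than the gaps of these genes.

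**Figure D2:**
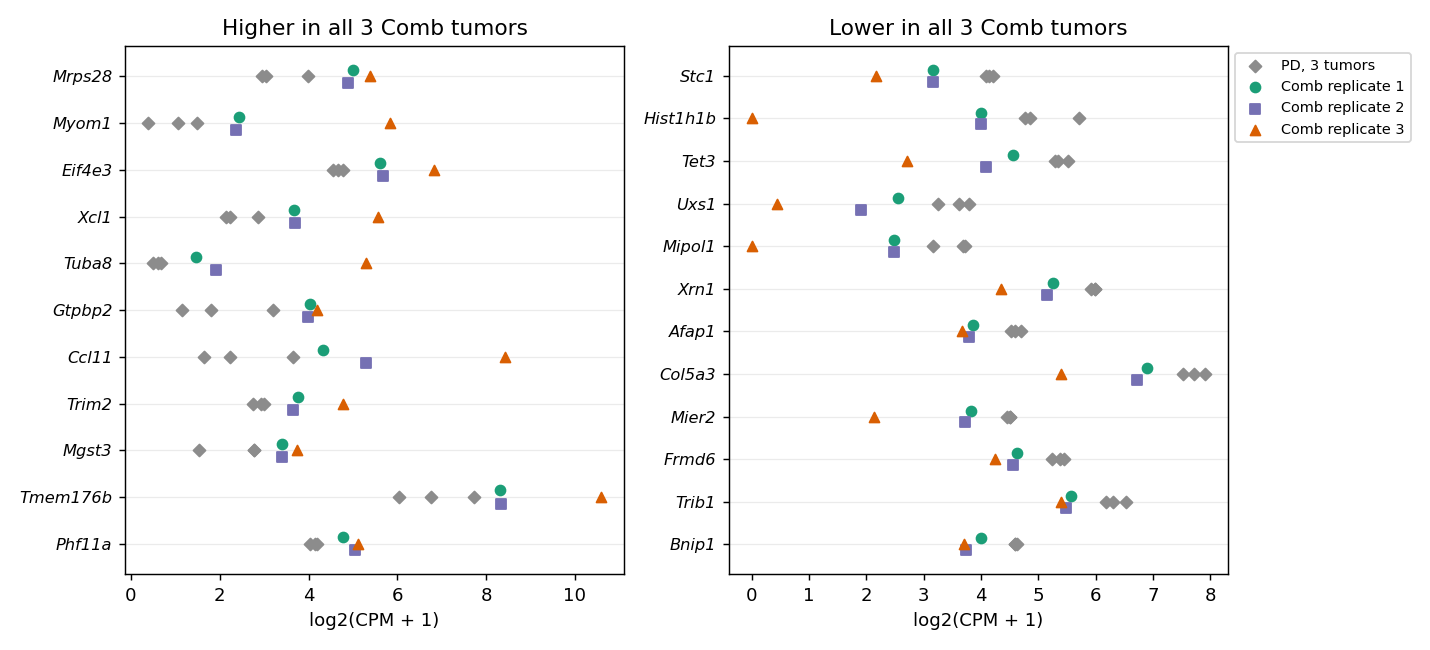
Genes with the widest gap between PD and Comb tumors (11 higher and 12 lower), as log2(CPM + 1) in each tumor (grey diamonds PD, colored symbols Comb replicates 1 to 3). In Trib1, Afap1, Bnip1 and Phf11a the 3 Comb tumors lie together, whereas in Myom1, Tuba8 and Ccl11 replicate 3 lies far above the other two.

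Genes of hypoxia and glycolysis were lower across the 3 Comb tumors. Of 41 tested members, 32 had a log2 fold change below 0 and 13 an unadjusted p under 0.05, all of them lower (against 5.11% of all genes). In 14 members, or 34.1% (8.10% of all genes), all 3 Comb tumors lay below all 3 PD tumors, and in none above. This was the highest such share among the 29 lists, and the count was 16 with library size alone and 13 with DESeq2 size factors. The median log2 fold change was -0.41 over the list against -0.0029 over all genes, and -0.34 without Comb replicate 3, when 36 of 41 were lower and 9 had an unadjusted p under 0.05 (4.90% of all genes). Counted by tumor, 34 members were below the PD mean in Comb replicate 1, 35 in replicate 2 and 28 in replicate 3.

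Egln1, the prolyl hydroxylase PHD2 that marks HIF for destruction and is itself a HIF target, had 119, 99.3 and 117 CPM in PD and 68.3, 52.9 and 50.9 CPM in Comb (log2 fold change -0.96, SE 0.20, unadjusted p = 0.000452, DESeq2 adjusted p = 0.00351). Ddit4, an inhibitor of mTORC1 induced by low oxygen and other stresses, had 272, 296 and 266 CPM in PD and 185, 79.1 and 35.6 CPM in Comb (-1.47, SE 0.44, DESeq2 adjusted p = 0.0457). Neither gene overlapped between the groups, and the 3 Comb tumors spread over a wider range in Ddit4 than in Egln1. Vegfa had 115, 86.9 and 81.0 CPM in PD and 60.3, 47.8 and 26.9 CPM in Comb, and remained lower at -0.80 without Comb replicate 3. Car9, a membrane carbonic anhydrase and common tissue marker of hypoxia, had 33.5, 33.8 and 25.8 CPM in PD and 18.0, 16.9 and 3.49 CPM in Comb (DESeq2 adjusted p = 0.143). The Con tumors covered 73.4 to 88.6 CPM in Vegfa, which is above the 3 Comb tumors as well.

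Beyond these, Bnip3, a receptor of mitophagy, was at 148, 173 and 161 CPM in PD and 106, 97.3 and 111 CPM in Comb, and Ndrg1, a stress-induced gene of hypoxic tumors, was at 189, 237 and 192 CPM against 142, 132 and 131 CPM. Both were lower by nearly the same amount in every Comb tumor. Pdk1, the kinase that holds pyruvate back from mitochondria, was at 35.0, 39.7 and 41.0 CPM in PD and 30.4, 25 and 24.5 CPM in Comb. The glycolytic genes Hk2, Tpi1, Pgk1 and Pgam1 were separated by narrow gaps, and their log2 fold changes were -0.35, -0.41, -0.35 and -0.74, or -0.28, -0.27, -0.28 and -0.47 without Comb replicate 3. Ankrd37, P4ha1 and Ak4 were the remaining separated members. Hif1a itself, at 81.9 to 111 CPM in PD and 102 to 127 CPM in Comb, was not lower, and Ldha was between 753 and 811 CPM in PD and between 721 and 769 CPM in Comb. In Comb replicate 3, 10 members (24.4%, against 41.0% of all genes) lay above all PD tumors, among them Aldoa (aldolase, 1228 CPM against 630 to 673 CPM), Bnip3l (192 CPM against 85.3 to 108 CPM) and Lox, a collagen cross-linking enzyme that fibroblasts also make (424 CPM against 17.8 to 94.2 CPM, and 109 CPM in Comb replicate 2). The prolyl hydroxylase Egln3, at 10.3, 34.6 and 9.60 CPM in PD and 20.5, 6.10 and 15.9 CPM in Comb, overlapped between the groups.

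**Figure D3:**
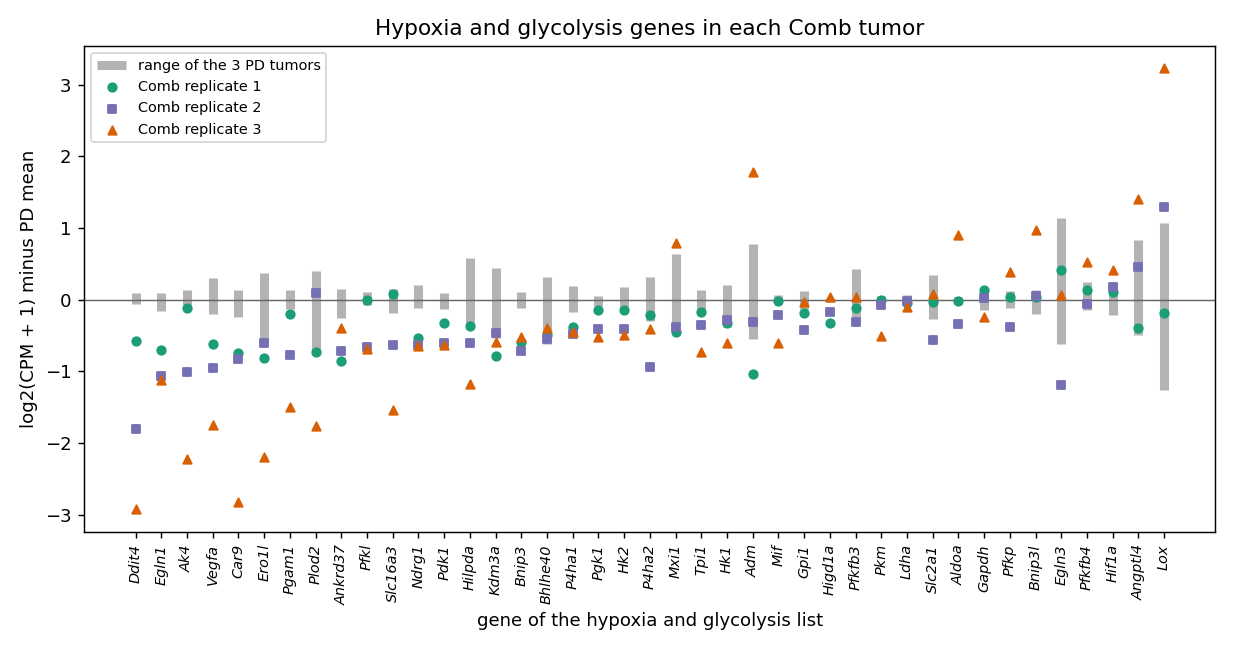
All 41 tested genes of the hypoxia and glycolysis list, ordered by the median of the Comb tumors, as log2(CPM + 1) minus the mean of the PD tumors. Grey bars give the range of the 3 PD tumors and symbols the 3 Comb tumors, which lie below the bar in 14 genes.

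The promoters of these members are shown because HIF binds a short core sequence, written here as ACGTG and searched on both strands in RefSeq promoters (GRCm38.p6, 250 bases before to 50 after each annotated start). A promoter was found for 13 of the 14 separated members, all but Ndrg1, and 11 of the 13 (84.6%) held the core at 1 or more of their starts, against 26 of 34 (76.5%) in the whole list and 28.7% of the 10108 tested genes with a promoter. Among the genes below PD in all 3 Comb tumors as a whole the share was 33.1%, and among those above it was 26.1%. A match describes the letters in this window and does not show that a factor binds there. The promoters of Egln1, Ddit4, Car9 and Ankrd37 follow, 5′ to 3′ on the gene's strand, with the core or its reverse complement in capitals.
Egln1, chr8:124949205-124949504 (- strand): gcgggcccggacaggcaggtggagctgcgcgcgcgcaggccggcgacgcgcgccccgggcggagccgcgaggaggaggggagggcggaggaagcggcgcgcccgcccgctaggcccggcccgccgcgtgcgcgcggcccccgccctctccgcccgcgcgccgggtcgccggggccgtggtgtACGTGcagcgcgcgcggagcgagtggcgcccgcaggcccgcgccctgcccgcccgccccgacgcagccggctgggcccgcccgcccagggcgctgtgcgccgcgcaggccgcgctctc
Ddit4, chr10:59951721-59952020 (- strand): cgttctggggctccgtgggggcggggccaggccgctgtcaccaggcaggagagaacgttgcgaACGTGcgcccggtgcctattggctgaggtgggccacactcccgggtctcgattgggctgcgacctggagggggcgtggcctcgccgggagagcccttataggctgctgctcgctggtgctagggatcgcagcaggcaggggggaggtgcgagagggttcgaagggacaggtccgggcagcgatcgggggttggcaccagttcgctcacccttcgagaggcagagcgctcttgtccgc
Car9, chr4:43506776-43507075 (+ strand): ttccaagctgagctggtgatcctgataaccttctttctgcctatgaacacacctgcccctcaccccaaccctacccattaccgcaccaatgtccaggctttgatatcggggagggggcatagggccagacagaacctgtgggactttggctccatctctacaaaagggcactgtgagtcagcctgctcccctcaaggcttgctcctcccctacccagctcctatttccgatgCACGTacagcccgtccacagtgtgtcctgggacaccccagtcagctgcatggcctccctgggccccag
Ankrd37, chr8:45999801-46000100 (- strand): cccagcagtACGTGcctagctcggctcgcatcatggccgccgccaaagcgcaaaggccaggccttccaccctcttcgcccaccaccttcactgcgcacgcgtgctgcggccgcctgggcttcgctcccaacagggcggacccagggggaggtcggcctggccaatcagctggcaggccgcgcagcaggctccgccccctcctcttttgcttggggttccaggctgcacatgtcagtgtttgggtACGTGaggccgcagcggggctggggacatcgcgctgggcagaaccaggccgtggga

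Each of the first 3 promoters holds 1 copy and that of Ankrd37, an ankyrin repeat protein, holds 2. Vegfa has 2 annotated starts in this table, of which 1 holds the core.

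Genes of oxidative phosphorylation were higher, in the opposite direction to those of glycolysis. Of 75 nuclear-encoded subunits tested, 70 had a log2 fold change above 0, 37 had an unadjusted p under 0.05 (12.9% of all genes) and 26, or 34.7%, lay above PD in all 3 Comb tumors (6.16% of all genes). DESeq2 called 4 of them higher (2.32% of all genes). The median was 0.51, and without Comb replicate 3 it was 0.19, with 68 of 75 above 0 and 17 at an unadjusted p under 0.05 (4.11% of all genes). With library size alone, 60 of 75 were above 0, the median was 0.31 and 19 subunits were above PD in all 3 tumors. Separated members came from all 5 complexes, with 12 of 36 subunits of complex I (Ndufa4 among them, as the list has it), 3 of 4 of complex II, 2 of 10 of complex III, 4 of 10 of complex IV and 5 of 15 of the ATP synthase.

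Atp5e, the epsilon subunit of the ATP synthase, was at 199, 217 and 209 CPM in PD and 273, 325 and 682 CPM in Comb (log2 fold change 1.03, SE 0.29, DESeq2 adjusted p = 0.0391, and 0.52 without Comb replicate 3). Atp5k, another subunit of it, was at 110, 135 and 127 CPM in PD and 166, 189 and 354 CPM in Comb. Sdhd, the membrane anchor of complex II, was at 33.6, 15.3 and 17.4 CPM in PD and 65.4, 46.4 and 129 CPM in Comb. In Atp5e and Atp5k, Comb replicates 1 and 2 lay just above PD, in Sdhd they lay further above, and replicate 3 was highest in each. In Ndufa4, which is also assigned to complex IV, the 3 Comb tumors were closer (90.5, 104 and 114 CPM, against 75.9, 65.6 and 76.2 CPM in PD).

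Cytosolic ribosomal proteins, which build the small and large subunits, were also higher as a list, with 49 of 54 above 0, 22 at an unadjusted p under 0.05 (12.9% of all genes) and 12 above PD in all 3 tumors (22.2%, against 6.16% of all genes). The median was 0.54, and without Comb replicate 3 it was 0.24, with 5 members at an unadjusted p under 0.05 (4.11% of all genes). Rpl35 was at 723, 851 and 764 CPM in PD and 994, 1166 and 1851 CPM in Comb. The list as a whole did not move in Comb replicate 1, where 27 members were above and 27 below the PD mean, whereas 52 were above it in replicate 2 and 47 in replicate 3. Ribosomal proteins have many processed pseudogenes, and reads shared with these could be assigned to either.

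The length of the transcript moved with these results. Over the 12933 tested genes with a length in GENCODE vM21 (longest transcript of the basic set), the median length was 3014 bases. It was 2040 bases for the genes above PD in all 3 Comb tumors and 4274 bases for those below. In 4 equal bins of length, the median log2 fold change went from 0.24 in the shortest genes to 0.04, -0.08 and -0.19 in the longest, and the share of genes above PD in all 3 tumors from 11.1% to 2.94%. Subunits of oxidative phosphorylation (median 908 bases) and ribosomal proteins (942 bases) are short, and the values to set beside their 34.7% and 22.2% are the 11.1% of the shortest bin. Hypoxia and glycolysis genes, with a median of 3259 bases, are near the middle. The part of length in the results was not tested.

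The same direction appeared in tumors that share no animal with this comparison. SFIH tumors against Con tumors ask for the effect of the fraction without the antibody, and there, too, no gene passed an adjusted p of 0.05 by edgeR, with 303 genes at an unadjusted p under 0.05. Of the 830 genes above PD in all 3 Comb tumors, 677 (81.6%) had a log2 fold change above 0 in SFIH against Con, as did 53% of all genes tested. Of the 1091 genes below PD, 937 (85.9%) were below 0, against 47.0% of all genes. In 193 genes (23.3% of the 830, against 8.55% of all genes) all 3 SFIH tumors were above all 3 Con tumors and all 3 Comb tumors above all 3 PD tumors, and in 365 genes (33.5% of the 1091, against 8.86% of all genes) both were below, while 12 and 10 genes were separated in opposite directions. The log2 fold changes of the 2 comparisons had a Spearman correlation of 0.376 across genes, which are not independent replicates and share the scaling of 1 fit. Libraries of SFIH and Comb tumors may also share steps of preparation, which the sources used here do not give. Among the lists, 31 of 41 hypoxia and glycolysis genes were below 0 in SFIH against Con, 6 of them in all 3 tumors, and 50 of 75 subunits of oxidative phosphorylation were above 0, 15 in all 3, where 64.3% of the shortest of 4 bins of genes by length were above 0.

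Genes above PD in Comb replicate 3 alone were above 0 in SFIH against Con in 47.5%, and genes below PD in that tumor alone were below 0 in 38.6%, near or under the values of all genes. Genes above PD in Comb replicates 1 and 2 without replicate 3 were above 0 in 81.0%, and those below PD were below 0 in 72.1%. All 12 higher and all 12 lower genes with the widest gaps had the same sign in SFIH against Con, and 4 and 6 of them were separated there as well, namely Mrps28, Eif4e3, Gtpbp2 and Ccl11 above, and Stc1, Tet3, Uxs1, Mipol1, Xrn1 and Trib1 below. Gtpbp2 was at 0.965, 7.63 and 9.55 CPM in Con and 29.2, 21.8 and 16.5 CPM in SFIH, and Xrn1 at 69.8, 59.3 and 57.0 CPM in Con and 34.0, 32.7 and 40.5 CPM in SFIH. Ddit4 was at 567, 497 and 536 CPM in Con and 229, 264 and 341 CPM in SFIH, so that it was lower with SFIH at both levels of antibody, and the Con tumors were above PD. Transcript length moved with SFIH against Con as well, at a median of 2348 bases for the genes above Con and 4050 bases for those below. Within each of the 4 bins of length, 77.8% to 86.9% of the genes above PD had the same sign in SFIH against Con, where 39.9% to 64.3% of all genes of the bin were above 0. For the genes below PD the range was 73.2% to 91.0%, against 35.7% to 60.2% of all genes of the bin.

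**Figure D4:**
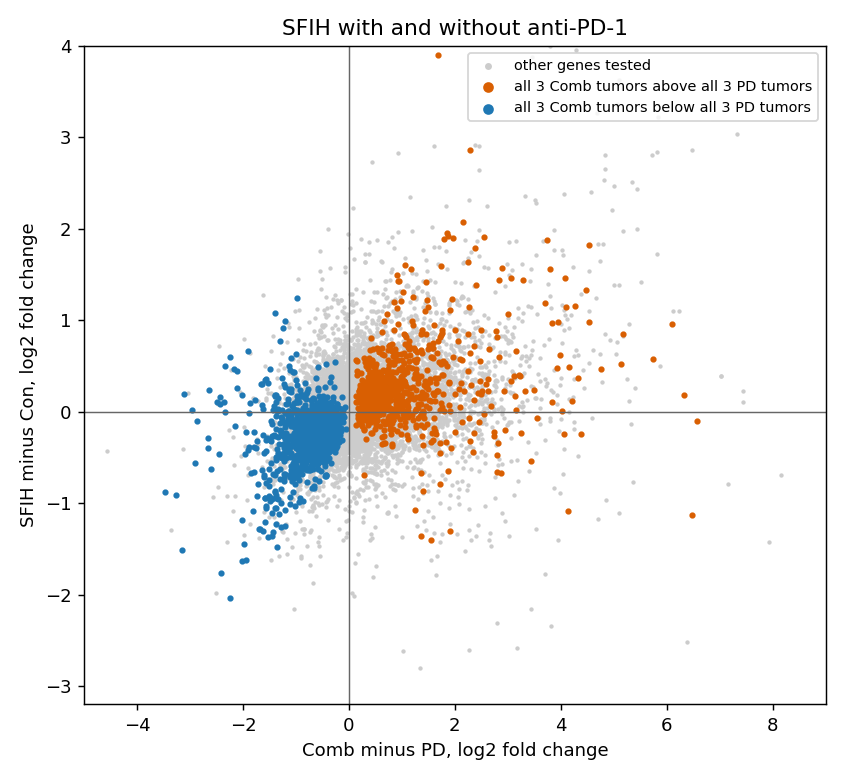
Log2 fold change of Comb against PD (horizontal) and of SFIH against Con (vertical) for the tested genes, 15 of which lie outside the axes. Genes above PD in all 3 Comb tumors (orange) lie above 0 on the vertical axis in 677 of 830 cases, and genes below PD (blue) lie below 0 in 937 of 1091.

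By the test of the difference itself, no gene had an adjusted p under 0.05 for a change in the effect of SFIH with against without the antibody (edgeR interaction), and 344 genes had an unadjusted p under 0.05.

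Chemokines of the CC family, which recruit monocytes, eosinophils and T cells, were higher in Comb. All 9 tested members had a log2 fold change above 0, 7 had an unadjusted p under 0.05 (12.9% of all genes, higher), DESeq2 called 6 (2.32%), and Ccl7, Ccl11 and Ccl12 lay above PD in all 3 Comb tumors (6.16% of all genes). Without Comb replicate 3, 4 members had an unadjusted p under 0.05 (4.11% of all genes). Ccl7, a ligand of the monocyte receptor Ccr2, was at 68.5, 82.8 and 51.1 CPM in PD and 176, 123 and 225 CPM in Comb (log2 fold change 1.37, SE 0.28, unadjusted p = 0.000491, DESeq2 adjusted p = 0.00385, and 1.15 without Comb replicate 3). Ccl12, another ligand of Ccr2, was at 28.5, 19.6 and 25.8 CPM in PD and 40.8, 72.9 and 268 CPM in Comb. For Ccl7 the highest PD tumor was 1.48-fold below the lowest Comb tumor. Ccr2 itself was also separated, at 67.0, 80.0 and 58.4 CPM in PD and 95.8, 88.7 and 346 CPM in Comb (DESeq2 adjusted p = 0.0703). Ccl8, a further member, was at 130, 650 and 312 CPM in PD and 310, 2505 and 27046 CPM in Comb, where Comb replicate 1 lay inside the PD range and Ccl8 took 2.05% of all counts of replicate 3. Ccl7 and Ccl11 were also above Con in all 3 SFIH tumors, with Ccl7 at 57.8, 80.8 and 82.7 CPM in Con and 173, 131 and 106 CPM in SFIH. In the whole list of chemokines, cytokines and their receptors, 37 of 41 were above 0, 14 had an unadjusted p under 0.05 (against 12.9% of all genes), or 4 without Comb replicate 3, and 5, or 12.2%, were separated (against 6.16%), the fifth being Il6 at 0.20 to 0.96 CPM in PD and 1.04 to 1.65 CPM in Comb.

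Macrophage genes were higher in Comb replicates 2 and 3 and near PD in replicate 1. Of 32 tested genes, 28 had a log2 fold change above 0 and 19 an unadjusted p under 0.05 (12.9% of all genes), and DESeq2 called 11 (2.32% of all genes). Above all PD tumors were 4 members in Comb replicate 1, 28 in replicate 2 and 25 in replicate 3, where 26.7%, 30.6% and 41.0% of all genes tested were. The list's summed level was 1479, 3069 and 1850 CPM in PD and 1585, 6484 and 66545 CPM in Comb. The median log2 fold change was 1.5, and without Comb replicate 3 it was 0.77, with 7 members at an unadjusted p under 0.05 (4.11% of all genes).

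Among the M2-like members, all 12 were above 0 and 10 had an unadjusted p under 0.05 (12.9% of all genes), with a median of 3.03. Without Comb replicate 3, 6 had an unadjusted p under 0.05 (4.11% of all genes) and the median was 1.35. Among the M1-like members, 6 of 9 were above 0, none had an unadjusted p under 0.05, 1 (Il6) lay above PD in all 3 tumors (6.16% of all genes) and their median was 0.29. The difference between the 2 groups of members was not tested. Chil3 (the chitinase-like protein Ym1) was at 10.4, 22.4 and 14.6 CPM in PD and 31.8, 72.5 and 248 CPM in Comb (log2 fold change 2.90, SE 0.64, unadjusted p = 0.000822, DESeq2 adjusted p = 0.00277, and 1.73 without Comb replicate 3). Cd163, the scavenger receptor for hemoglobin, was at 5.98, 13.8 and 12.6 CPM in PD and 17.2, 52.7 and 218 CPM in Comb. These are the M2-like members above PD in all 3 Comb tumors, and Chil3 was also above Con in all 3 SFIH tumors.

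Mrc1, which encodes the mannose receptor CD206, was at 31.4, 121 and 61.4 CPM in PD and 52.6, 272 and 808 CPM in Comb, and Adgre1, which encodes F4/80, was at 30.4, 90.7 and 40.9 CPM in PD and 48.3, 171 and 700 CPM in Comb. In both, Comb replicate 1 lay inside the PD range. Retnla, a secreted protein of macrophages under interleukin 4 and of eosinophils, was at 9.51, 123 and 60 CPM in PD and 22.9, 1767 and 53009 CPM in Comb. It took 4.01% of all counts of Comb replicate 3 and 0.156% of those of replicate 2. Ccl24 (eotaxin-2) followed the same order, with at most 1.5 CPM in PD and 1.07, 9.44 and 323 CPM in Comb. Among M1-like members, Nos2 was at 5.34, 2.59 and 2.50 CPM in PD and 5.73, 9.32 and 1.08 CPM in Comb, and Tnf was below 1 CPM in Comb replicate 3 and between 3.42 and 11.2 CPM elsewhere. Of the 9 M1-like members, 6 were above all PD tumors in Comb replicate 2 (30.6% of all genes) and 6 below all PD tumors in replicate 3 (45.2% of all genes).

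Markers of mast cells and eosinophils had the same order of tumors. Their summed level was 30.1, 49.0 and 27.7 CPM in PD and 37.4, 281 and 2626 CPM in Comb, and all 8 tested markers were above 0, 7 of them at an unadjusted p under 0.05 (12.9% of all genes), or 5 without Comb replicate 3 (4.11% of all genes). The mast cell protease Cma1 was at 4.70, 7.91 and 2.60 CPM in PD and 8.16, 33.7 and 215 CPM in Comb, and Ear2, a ribonuclease of eosinophils and macrophages, was at 0.214, 4.77 and 2.30 CPM in PD and 1.36, 61.0 and 1177 CPM in Comb. Neutrophil markers summed to 60.7, 151 and 76.2 CPM in PD and 107, 148 and 961 CPM in Comb. In Comb replicate 3, though, 4 of 9 markers were above the PD mean and 5 below, at a median of -0.24. Csf3r, the receptor for G-CSF, was at 0.534, 1.36 and 1.10 CPM in PD and 1.55, 1.73 and 2.41 CPM in Comb.

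**Figure D5:**
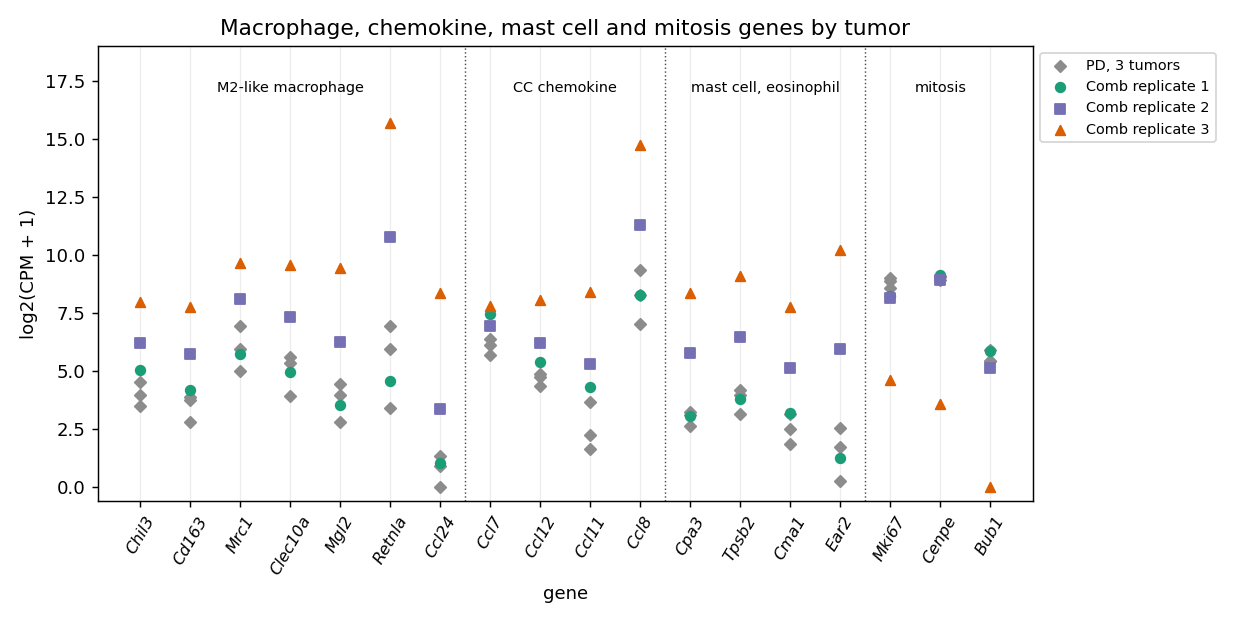
Levels of M2-like macrophage, CC chemokine, mast cell and eosinophil, and mitosis genes as log2(CPM + 1) in each tumor (grey diamonds PD, colored symbols Comb replicates 1 to 3). Comb replicate 1 lies within or near PD for most myeloid genes, replicate 2 above and replicate 3 highest, and the mitosis genes Cenpe and Bub1 are far below PD in replicate 3 (Bub1 is also below PD in replicate 2, at 33.8 CPM).

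T cell and interferon genes did not move together in the 3 Comb tumors. Of 35 T cell genes, 27 had a log2 fold change above 0, with a median of 0.86 that was 0.04 without Comb replicate 3, and none lay above PD in all 3 tumors (6.16% of all genes did). Of the 16 genes of the T cell receptor complex and coreceptors, 13 were below the PD mean in Comb replicate 1, while 15 were above it in replicate 2 and 15 in replicate 3. Cd3e was at 2.56, 7.09 and 3.50 CPM in PD and 2.14, 3.22 and 15.2 CPM in Comb, and Cd8a at 8.97, 23.9 and 9.40 CPM in PD and 4.27, 21.1 and 20.2 CPM in Comb. Both overlapped between the groups, and the highest PD tumor of each was replicate 2. Cd4 was at 0.748, 3.95 and 2.40 CPM in PD and 2.33, 8.17 and 25.3 CPM in Comb. Tcf7, the transcription factor of naive and stem-like T cells, was the separated member and was lower (2.86% of the list, against 8.10% of all genes). It was at 1.07, 1.64 and 1.20 CPM in PD and 0.389, 1.04 and 0 CPM in Comb. These levels rest on 12 counts or fewer per tumor, and the gap was 1.02-fold.

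For cytotoxic effectors and NK cells, 15 of 20 were above 0 and 9 had an unadjusted p under 0.05 (12.9% of all genes), at a median of 1.16. Without Comb replicate 3, 1 member had an unadjusted p under 0.05 (4.11% of all genes) and the median was 0.41. Xcl1 and Ncr1 lay above PD in all 3 tumors, a share of 10% that is near the 6.16% of all genes. Ncr1, which encodes NKp46 of NK and innate lymphoid cells, was at 0.748, 0.545 and 0.30 CPM in PD and 1.17, 2.42 and 4.09 CPM in Comb. Gzmb, the protease of cytotoxic granules, was at 10.6, 21.4 and 6.10 CPM in PD and 11.5, 20.5 and 17.7 CPM in Comb, where all 3 Comb tumors were inside the PD range. MHC class II and dendritic cell genes were above 0 in 17 of 19, with medians of -0.30, 0.91 and 2.44 relative to the PD mean in Comb replicates 1 to 3. At an unadjusted p under 0.05 were 10 of them (12.9% of all genes, higher), and none without Comb replicate 3. Their separated members (10.5%, against 6.16% of all genes) were the costimulatory ligand Cd80 (0.534, 1.5 and 0.80 CPM in PD and 2.04, 2.99 and 3.73 CPM in Comb) and the receptor Cd40 (14.7, 17 and 15.9 CPM in PD and 18.0, 24.6 and 67.1 CPM in Comb).

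Genes of the interferon gamma response were above the PD mean in 10 of 40 cases in Comb replicate 1, 39 of 40 in replicate 2 and 17 of 40 in replicate 3. The median log2 fold change of the list was 0.16, and it was -0.025 with library size alone. Ifng was at 1.82, 6.00 and 1.90 CPM in PD and 1.36, 10.6 and 11.1 CPM in Comb, and Cxcl9 at 265, 375 and 342 CPM in PD and 194, 698 and 579 CPM in Comb, so that replicate 1 lay below PD in both and replicates 2 and 3 above. Wars, a tRNA synthetase induced by interferon gamma, was the member above PD in all 3 tumors (28.8, 29.0 and 27.8 CPM in PD, 38.6, 37.6 and 34.2 CPM in Comb). That is 2.5% of the list, under the 6.16% of all genes. Type I interferon genes split in another way, with medians of 0.29 and 0.19 relative to the PD mean in Comb replicates 1 and 2 and -1.93 in replicate 3. Without Comb replicate 3, 22 of 29 were above 0, against 7 of 29 with it. Ifit1bl1, a member of the interferon-induced IFIT family that has close paralogs, was at 27.3, 27.7 and 21.3 CPM in PD and 47.7, 37.4 and 2.41 CPM in Comb. It was chosen for lying above PD in replicates 1 and 2 without replicate 3, so that its pattern is a description. The sensor Ifih1 (MDA5) and Stat2 were below PD in all 3 tumors (6.9% of the list, against 8.10% of all genes). Their log2 fold changes were -0.67 and -0.51, or -0.41 and -0.27 without Comb replicate 3. With library size alone, 0 of 29 members were below PD in all 3 tumors.

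Of 45 TGF-β signaling genes, 25 had a log2 fold change below 0, near the share of all genes, with a median of -0.21. In all 3 Comb tumors, 7 members (15.6%) lay below PD, against 8.10% of all genes, and 1 above, against 6.16%. By role, 9 of 10 inhibitors and feedback genes were below 0 (median -0.38), whereas 9 of 11 induced targets were above 0 (median 0.50). Without Comb replicate 3, 7 of 11 induced targets were above 0 (median 0.25), and in Comb replicate 1 alone 7 of 11 were below the PD mean. Among ligands, Tgfb2 was at 13.4, 7.77 and 17.3 CPM in PD and 4.86, 8.52 and 6.26 CPM in Comb, where Comb replicate 2 fell inside the PD range, and Tgfb1 had too few counts to be tested. Smad7, the inhibitor induced by the pathway, was at 13.4, 13.6 and 16.2 CPM in PD and 8.45, 9.67 and 2.77 CPM in Comb, clear of PD in every Comb tumor (DESeq2 adjusted p = 0.101). Ctgf, a target of TGF-β, was the member above PD, at 14.3, 22.2 and 9.0 CPM in PD and 25.5, 26.7 and 32.7 CPM in Comb. The receptor Bmpr1a was lower (-0.64, SE 0.22, DESeq2 adjusted p = 0.103).

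Collagens and fibroblast genes differed between Comb tumors. In Comb replicate 1, 29 of 35 were below the PD mean, whereas 21 were above it in replicate 2 and 27 in replicate 3. Col6a3, a collagen VI chain, was at 1364, 608 and 1146 CPM in PD and 427, 444 and 614 CPM in Comb, and Col18a1, the source of endostatin, at 82.9, 50.2 and 80.5 CPM in PD and 48.6, 36.9 and 32.5 CPM in Comb. Fbn1, the microfibril protein fibrillin, was below PD in Comb replicates 1 and 2 (120 and 116 CPM, against 164 to 179 CPM) and above in replicate 3 (198 CPM). Mmp10, a stromelysin, had 25 counts over the PD tumors and 0 over the Comb tumors, which is at least 8.52-fold lower when a floor of 3 counts over the group is used.

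Stress and death genes had no common direction. Fas, the death receptor, was above PD in all 3 tumors (4.49, 4.23 and 4.8 CPM in PD, 6.90, 8.40 and 24.1 CPM in Comb, DESeq2 adjusted p = 0.0433), as was Casp1, the protease that activates interleukin 1β (114, 141 and 123 CPM in PD, 157, 160 and 232 CPM in Comb, DESeq2 adjusted p = 0.110). The survival gene Bcl2 was below PD in all 3, with a log2 fold change of -0.33. The p53 and apoptosis list of 31 genes had 3 members above PD in all 3 tumors (9.68%, against 6.16% of all genes), 4 below (12.9%, against 8.10%) and a median of 0.13, which was -0.05 with library size alone. NRF2 targets, which sesquiterpene lactones can induce by reacting with cysteines, had 8 of 19 above 0, where 49.8% of all genes were, with 1 member above PD in all 3 tumors (5.26%) and 2 below (10.5%). Txnrd1 (thioredoxin reductase) was at 141, 161 and 118 CPM in PD and 114, 76.2 and 23.0 CPM in Comb and Me1 (malic enzyme) was also below PD, whereas G6pdx, the entry enzyme of the pentose phosphate pathway, was at 38.3, 33.0 and 36.9 CPM in PD and 44.4, 49.0 and 54.1 CPM in Comb. Sdf2l1, an endoplasmic reticulum chaperone cofactor, was the member of its stress list above PD (40.3, 36.0 and 42.5 CPM in PD, 56.2, 56.5 and 151 CPM in Comb), while Sesn2 was below. Cholesterol synthesis genes had medians of 0.22, -0.26 and -2.36 relative to the PD mean in replicates 1 to 3, and Fdft1 (squalene synthase) lay above PD in all 3.

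Some genes left the PD range otherwise in Comb replicates 1 and 2 than in replicate 3. Above PD in replicates 1 and 2 and below it in replicate 3 were U2af1, a splicing factor that binds the 3′ splice site (90.1, 101 and 102 CPM in PD, 150, 144 and 68.0 CPM in Comb), and Ms4a4c, an interferon-responsive membrane protein (64.8, 76.0 and 60.2 CPM in PD, 106, 128 and 43.3 CPM in Comb). Pnpt1, an exoribonuclease of mitochondria, was at 38.1, 37.2 and 25.1 CPM in PD and 59.4, 52.0 and 10.7 CPM in Comb. These 3 genes were chosen for lying outside PD in replicates 1 and 2 without replicate 3, so that their pattern is a description. Ube2h, a ubiquitin-conjugating enzyme, was below PD in replicates 1 and 2 (49.4 and 45.6 CPM, against 63.4 to 69.7 CPM) and inside its range in replicate 3 (68.2 CPM).

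Genes of mitosis separated Comb replicate 3 from the 5 other tumors. The summed level of 30 genes was 5904, 5311 and 5400 CPM in PD and 5277, 4444 and 322 CPM in Comb. All 30 were below all PD tumors in replicate 3, 17 in replicate 2 and 10 in replicate 1, where 45.2%, 30.9% and 25.1% of all genes were. In all 3 Comb tumors, 5 members (16.7%) lay below PD, against 8.10% of all genes. Mki67, Kif23, Ttk and Cenpf had the widest gaps, of 1.29-fold, 1.16-fold, 1.13-fold and 1.11-fold. Cenpe, a kinesin of the kinetochore, was at 548, 534 and 480 CPM in PD and 564, 486 and 10.9 CPM in Comb, and the checkpoint kinase Bub1 at 42.8, 58.8 and 42.0 CPM in PD and 57.7, 33.8 and 0 CPM in Comb. The replication factor Mcm10 also had no count in replicate 3, and Sfmbt2, a Polycomb group protein, was at 98.6, 64.2 and 88.0 CPM in PD and 80.2, 70.8 and 0 CPM in Comb. The list's median of -0.65 was -0.16 without this tumor. Mki67, the gene of the Ki-67 antigen, was at 520, 383 and 470 CPM in PD and 297, 282 and 23.5 CPM in Comb, so that it was lower in every Comb tumor. Its log2 fold change was -1.19 (SE 0.64, edgeR unadjusted p = 0.0883), and -0.66 without Comb replicate 3. In RefSeq promoters, 19 of 25 mitosis genes (76.0%) held TTTGAA, the core of the cell cycle homology region, on either strand, against 14.5% of all genes with a promoter.

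Transcripts of neighboring tissues were high in Comb replicate 3. Skeletal muscle genes summed to 354, 137 and 130 CPM in PD and 1264, 89.4 and 11254 CPM in Comb, so that replicate 1 was also above PD and replicate 2 was not. Acta1, skeletal actin, was at 46.1, 0.955 and 1.5 CPM in PD and 193, 0.345 and 2546 CPM in Comb. Adipocyte markers summed to 187, 181 and 139 CPM in PD and 188, 797 and 3212 CPM in Comb. Skin genes summed to 10.4 to 25.9 CPM in 5 tumors and 707 CPM in Comb replicate 3, where the keratin Krt5 was at 100 CPM. Adipocyte markers had the same order of Comb tumors as the summed macrophage and mast cell genes, skin genes were apart in replicate 3 alone, and muscle moved with oxidative phosphorylation in replicates 1 and 3, but in replicate 2, where muscle was lowest, 66 of 75 subunits of oxidative phosphorylation were above the PD mean. The part of these tissues in the results was not tested. As for the label, the epithelial marker Epcam was near 0 in PD (0, 0.273 and 0.30 CPM) and higher in every Comb tumor (0.68, 2.53 and 10.2 CPM). The 6 epithelial genes summed to 5.02, 28.5 and 8.0 CPM in PD and 7.97, 27.7 and 153 CPM in Comb. The mesenchymal genes had no common direction, with 4 of 9 above 0, 5 below and a median of -0.0035. Twist1 was below PD in all 3 Comb tumors, at 25.6 to 26.9 CPM in PD and 9.38 to 20.3 CPM in Comb. Snai2 was above PD in all 3, with a log2 fold change of 0.62 and a gap of 1.02-fold.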

How the data were processed

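Raw read counts per gene symbol for 12 tumors were deposited by the authors as a single table of whole numbers, from QuantSeq 3′ libraries of tumor RNA. The aligner, build and annotation behind the counts are not given in the sources used here. A count was present for 19137 of 23282 symbols. Total counts were 7870741 to 10981028 in the 6 tumors compared, and since reads carry no molecular identifier, counting error is a lower limit of the error. Genes with near-identical copies, overlapping neighbors or antisense partners could share reads.

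Counts were tested with edgeR 4.0.16 (TMM, filterByExpr, quasi-likelihood, two-sided) in R 4.3.3 with all 12 tumors in the fit and no block, and p-values were adjusted over 13464 genes by Benjamini-Hochberg. Standard errors are those of the fitted log2 fold changes. P-values set the difference between groups against the spread between tumors of a group, which was estimated over all 12 tumors, 3 per group. CPM values are TMM-scaled, and levels are log2(CPM + 1). Alternatives were DESeq2 1.42.0, voom with quality weights (limma 3.58.1), other scalings and filters, PD and Comb tumors alone, a replicate block, and each tumor left out. With 3 tumors against 3, an exact permutation test cannot give a two-sided p under 0.1 and was not used. The steps were tested on simulated counts.

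Named genes were the 12 per direction with the widest gap between all Comb and all PD tumors and at least 10 CPM in the higher group, 6 per direction for Comb replicate 3 alone and for replicates 1 and 2 alone, the genes the study plotted or stained for, and up to 4 separated members (or the first) of each of 29 lists written by hand. Some genes that the rule took are not reported here. Of the 738 list symbols, 734 were in the table. Members and lists were chosen with earlier results of these data known. Other list members named were picked after their values were seen, and the counts of list members without Comb replicate 3, the comparison with SFIH against Con and the use of transcript length were added after seeing the data. Figures were drawn with matplotlib.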

Additional observations from a re-analysis of the deposited data

How the results depend on the processing

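The count of genes with an adjusted p under 0.05 depended on the test and on single tumors. Against 0 by edgeR, DESeq2 gave 399 (329 higher, 70 lower) and voom with quality weights 1074 (643 higher, 431 lower). Leaving out 1 tumor gave 0 to 2100 (0 to 1531 higher, 0 to 569 lower), with 2100 without Comb replicate 1. Without Comb replicate 3, DESeq2 gave 25 (6 higher, 19 lower) and voom 0, both chosen after seeing the data. The count of genes with unadjusted p under 0.05 went from 2424 to 3819 with voom, 675 with PD and Comb tumors only, and 1195 (without PD replicate 1) to 5116 (without Comb replicate 1) by edgeR, and without Comb replicate 3 1319 by DESeq2 and 850 by voom. With 1 tumor left out, the count of genes separated in all 3 Comb tumors, higher, went from 830 to between 1100 and 2995, and that of genes separated in all 3 Comb tumors, lower, from 1091 to between 1284 and 3105, since fewer tumors had to be separated. The cause of the other differences was not tested. Other scalings and pseudocounts kept these 2 counts within 1.5 times.

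With library size alone, the median of hypoxia and glycolysis went to -0.55, TGF-β signaling to -0.38 and mesenchymal state to -0.24, and 3 medians turned sign: interferon gamma (-0.025), p53 and apoptosis (-0.053), and collagen and fibroblast (0.20 to -0.098). Others that moved over 1.5-fold were oxidative phosphorylation (0.51 to 0.31), ribosomal proteins (0.54 to 0.32), T cells (0.86 to 0.55), endothelial cells (0.34 to 0.12), type I interferon (-0.16 to -0.28), NRF2 targets (-0.11 to -0.25), endoplasmic reticulum stress (-0.061 to -0.21) and heat shock (-0.15 to -0.27). Leaving out 1 tumor gave medians of 0.19 to 0.66 for oxidative phosphorylation, -0.15 to 0.30 for interferon gamma, 0.045 to 1.26 for T cells, 0.41 to 1.56 for cytotoxic cells, 0.43 to 2.09 for MHC class II, -0.22 to -0.052 for TGF-β signaling, -0.068 to 0.18 for p53 and -0.45 to 0.20 for heat shock. The ranges were 2.86 to 5.30 for adipocytes, -0.024 to 3.50 for skin, 0.88 to 2.72 for B and plasma cells, -0.90 to 2.80 for erythroid cells, 2.08 to 4.70 for mast cells, 1.44 to 5.04 for epithelial and -0.28 to 0.12 for mesenchymal genes.

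Single genes changed sign. With voom, Mb went to -1.55, Cd3e to -0.052 and Acta1 to -2.37. With library size alone Cd8a went to -0.10, and with a mean of at least 50 counts Arhgef10 went to 0.050. With 1 tumor left out, the ranges were -0.024 to 5.44 for Perp, -1.05 to 0.012 for Cenpe, -0.23 to 0.75 for Phactr1, -0.073 to 0.74 for the log2 fold change of Pnpt1, -0.33 to 0.74 for Ifit1bl1, -0.64 to 0.23 for Arhgef10, -0.58 to 0.31 for Ido2, -0.70 to 1.14 for Cd3e, -0.22 to 0.71 for Cd8a, -0.80 to 0.34 for Cd79a and -1.15 to 2.56 for Hba-a1. The causes were not tested.

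Replicate numbers did not pair the tumors: same-numbered PD and Comb tumors had correlations of deviations of 0.409, -0.173 and -0.0809. With the number as a replicate block, 0 genes passed the adjusted and 1804 the unadjusted threshold, and the log2 fold change of Ifit1bl1 went to -0.0015.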
